A study of Mus musculus with 24 samples.

Results

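The histone genes of mouse liver were followed through 4 groups of 6 RNA sequencing libraries each. A gene was included when its symbol marked it as a core histone, a linker histone or a histone variant and when it had at least 10 counts in at least 6 libraries, which 66 of the 49315 rows of the count table did. They were 54 replication-dependent histone genes (5 of linker histone H1, 15 of H2A, 11 of H2B, 10 of H3 and 13 of H4), 10 histone variant genes, 1 pseudogene and 1 antisense gene. Another 24 rows carried a histone symbol but stayed under the minimum, 9 of them without a count in any library. Wild-type AKT/YAP1 livers bore tumours (cholangiocarcinoma, which resembles bile duct epithelium) after AKT and YAP1 had been delivered on transposons. Wild-type controls had received an empty vector. The remaining groups were tumour-bearing Mdr2-/- AKT/YAP1 livers and Mdr2-/- controls with the empty vector, from mice that lack the canalicular phospholipid transporter Abcb4 (Mdr2) and develop bile duct injury. Sex, age and the promoter driving the oncogenes were not given in the sources used here, and the tumour-bearing samples were whole tissue rather than sorted tumour cells.

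Histones package DNA into nucleosomes. A pair of each of H2A, H2B, H3 and H4 forms the core, and H1 binds the linker DNA where it enters and leaves. Replication-dependent histone genes lie in clusters, are transcribed mainly in S phase, when new DNA needs new nucleosomes, and give messages that end in a short hairpin instead of a poly(A) tail. Replacement variants such as H3.3 (H3f3a and H3f3b), H2A.Z (H2afz and H2afv), macroH2A (H2afy and H2afy2) and H1.0 (H1f0) are made from polyadenylated messages throughout the cell cycle. H2A.X (H2afx) is known to give both a hairpin-ended and a polyadenylated message, and H1.0 is known to accumulate in cells that have stopped dividing. The libraries had been depleted of ribosomal RNA rather than selected for poly(A), so both kinds of message could be counted. Adult hepatocytes are mostly quiescent.

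The terminal hairpin was looked for in the 3′ UTR models of the GENCODE M21 annotation. The motif was 16 bases long, with its first 6 bases complementary to its last 6. It was read on the transcript strand and present in 38 of 42 replication-dependent members. Of these 42, Hist1h2al had no 3′ UTR model, and the others had one of at least 16 bases. For the rest of the replication-dependent members the model was shorter than that. Among all protein-coding genes 235 of 21070 held it, 1.12%. H2afx was the 1 variant of 10 that held it. The sites of 7 members are shown because they carry the feature that separates the groups of genes compared here, with the 16 bases in capitals, T for U, and 5 bases on each side.
Hist1h1c: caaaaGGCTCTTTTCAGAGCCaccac
Hist1h3b: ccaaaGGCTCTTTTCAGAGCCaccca
Hist1h3c: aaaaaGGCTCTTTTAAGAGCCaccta
Hist1h4d: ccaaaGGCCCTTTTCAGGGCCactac
Hist1h4i: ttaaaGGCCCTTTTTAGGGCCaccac
Hist1h4j: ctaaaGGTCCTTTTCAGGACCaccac
H2afx: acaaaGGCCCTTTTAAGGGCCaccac
The forms found among the replication-dependent members sorted largely by class. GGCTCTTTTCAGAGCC stood in 3 genes of H1, 7 of H2A, 5 of H2B and 4 of H3, and in none of the H4 genes. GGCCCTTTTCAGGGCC stood in 7 H4 genes alone, Hist1h4d and Hist1h4h among them, and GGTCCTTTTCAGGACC in Hist1h4b and Hist1h4j.

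Total counts ran from 20976459 to 30288385 per library. Levels are given in CPM, that is per 1000000 counts with TMM library factors applied, as the lowest, the median and the highest of 6 libraries, and changes are log2 fold changes (± SE) from edgeR's quasi-likelihood test in a model of all 24 libraries with 17216 genes tested. Genes with an adjusted p (Benjamini-Hochberg) below 0.05 count as called. The labels call the tissues individual and do not state whether each is from its own animal: p-values then cover only the spread among these samples. The hepatocyte markers that define liver were abundant in all groups, with a summed level of 98259 to 126973 CPM in the wild-type controls and 27937 to 53349 CPM in Mdr2-/- AKT/YAP1 livers, and all 10 bile duct markers were detected. Replicate 6 of the wild-type AKT/YAP1 livers and replicate 1 of the Mdr2-/- AKT/YAP1 livers were said to stand apart in an earlier description of these files, and results that change without them say so. In bulk tissue, fewer cells of a type and less RNA per cell cannot be told apart.

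Many replication-dependent genes share sequence, which limits how their reads can be told apart. Of 54 replication-dependent members, 16 had over 50% of their 150-base windows in common with another gene, and 10 had none in common, among them Hist1h1a, Hist1h1b, Hist1h1c, Hist1h1d, Hist1h2ak and Hist1h4d. How the authors counted reads that match several genes is not given in the sources used here, so single values of the sharing genes are uncertain. The 16 genes had 11 rises in wild-type AKT/YAP1 livers, and the 38 genes with at most 50% of windows in common had 22. Of all genes 28.4% were called in that comparison, 16.9% as higher. Most members lie together, 47 of the 54 on chromosome 13 and 5 on chromosome 3.

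In wild-type controls a few replication-dependent genes made up most of the histone message, compared per length in the authors' TPM. The median level of Hist1h4d was 307 TPM and that of Hist1h2bc 259 TPM, followed by Hist1h4h at 168 TPM, Hist1h4c at 143 TPM, Hist1h4a at 138 TPM, Hist1h4n at 134 TPM and Hist1h1e at 129 TPM. H1f0 was at 90.9 TPM and H3f3b at 70.5 TPM. Hist1h4d and Hist1h2bc lay closer together than the SD of Hist1h4d (75.7 TPM), and the genes from Hist1h4c to Hist1h1e lay within the SD of each neighbour (29.1 to 37.7 TPM), whereas the step from Hist1h2bc to Hist1h4h was larger than the SD of either (41.5 and 45.0 TPM). The H4 genes held a summed median of 1041 TPM, against 347 TPM for H2B, 280 TPM for H1, 96.2 TPM for H3 and 54.8 TPM for H2A. Summed levels of the core classes were unequal on this scale, and TPM rests on the lengths in the authors' annotation. For 42 of the 66 members the length implied by counts and TPM was within 2% of the GENCODE M21 model, for 15 it was shorter and for 9 longer.

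All replication-dependent members together held a small part of the counts, and it was lowest in wild-type controls. Their share was 0.0426, 0.0558 and 0.0727% (lowest, median and highest) in wild-type controls and 0.0737, 0.0880 and 0.152% in wild-type AKT/YAP1 livers. In Mdr2-/- mice it was 0.0606, 0.0930 and 0.110% in controls and 0.0996, 0.138 and 0.162% in AKT/YAP1 livers. Every wild-type tumour-bearing library was above every wild-type control, while in Mdr2-/- mice the highest controls overlapped the lowest AKT/YAP1 livers. The ratio of group means was 0.80 on the log2 scale for the tumour effect in wild type and 0.60 for that in Mdr2-/- mice. Between genotypes it was 0.60 for the controls and 0.40 for the AKT/YAP1 livers, as a description with no test. After TMM scaling, which takes account of a few dominant genes, the summed level was 505, 693 and 879 CPM in the wild-type controls, 769, 936 and 1279 CPM in the wild-type AKT/YAP1 livers, 627, 917 and 1101 CPM in Mdr2-/- controls and 803, 1168 and 1384 CPM in Mdr2-/- AKT/YAP1 livers. On that scale wild-type controls again had the lowest median and Mdr2-/- AKT/YAP1 livers the highest, all groups overlapped, and the medians of the other groups stood in the reverse order to that of the shares. The mean TMM factor was 0.821 in wild-type controls, 1.01 in the groups between and 1.20 in Mdr2-/- AKT/YAP1 livers.

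**Figure D1:**
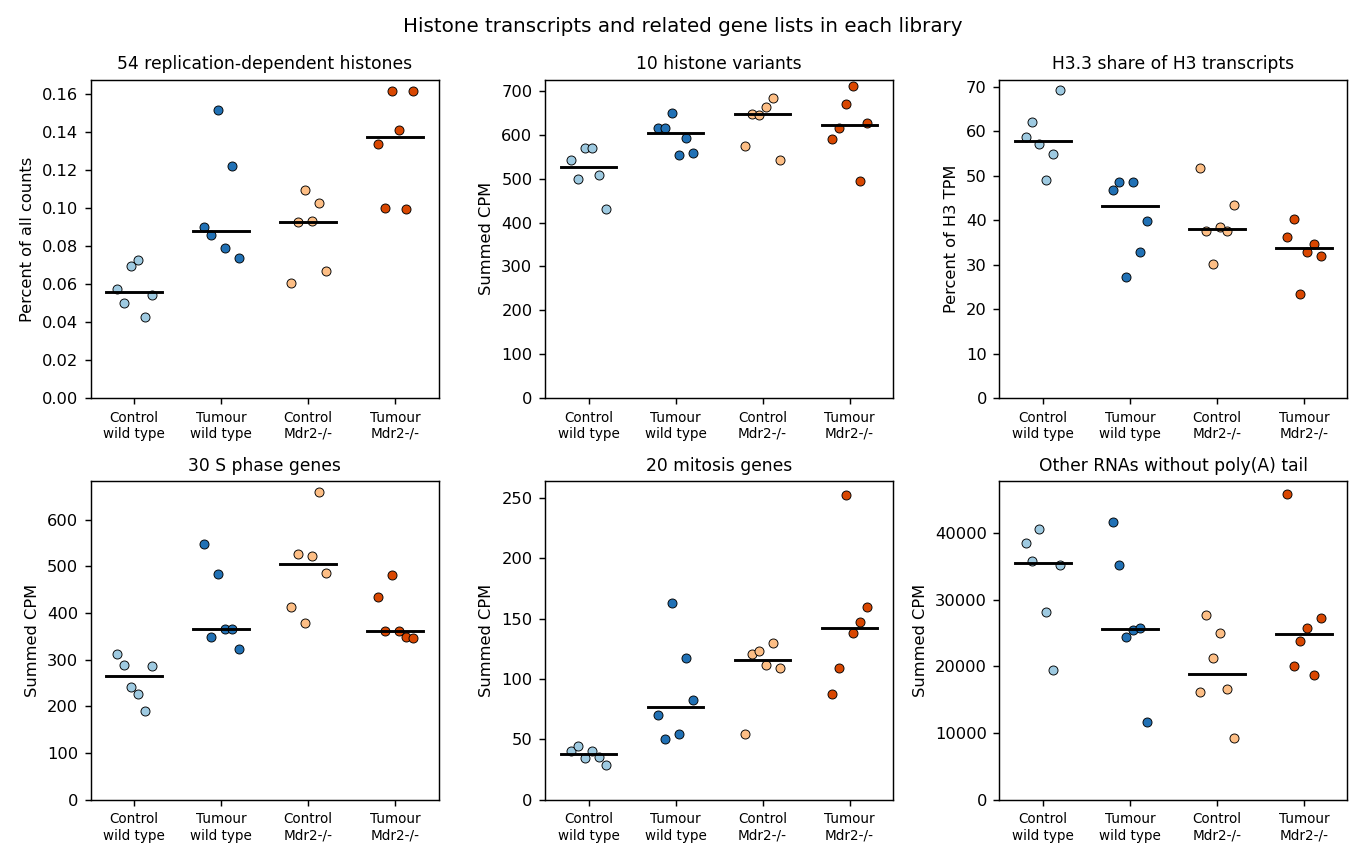
Each panel shows 24 libraries by group, with the median as a line: the percent of all counts held by 54 replication-dependent histone genes, summed CPM of 10 variants, the percent of H3 TPM held by H3.3, and summed CPM of S phase genes, mitosis genes and other RNAs without a poly(A) tail. The replication-dependent share had its lowest median in wild-type controls and its highest in Mdr2-/- AKT/YAP1 livers, whereas the S phase genes had theirs in Mdr2-/- controls.

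In wild-type mice the question was how AKT/YAP1 livers differ from livers given the empty vector. Replication-dependent histone genes of every class rose there, H3, H2A and H2B genes by the most and H4 genes by the least. Of the 66 members 38 rose and none fell, at a background of 28.4% called among all genes, 16.9% as higher and 11.5% as lower. In the replication-dependent set 33 of 54 rose, 4 of 5 for H1, 10 of 15 for H2A, 7 of 11 for H2B, 9 of 10 for H3 and 3 of 13 for H4. The median log2 change of the 54 was 1.23, beside 0.03 over all genes tested. For 16 of the 54, every tumour-bearing library was above every control, which held for 7.27% of all genes. No member had every AKT/YAP1 library below every control, as 3.49% of all genes had.

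Hist1h1b, a linker histone gene tied to dividing cells, was at 1.25, 1.61 and 2.63 CPM in the wild-type controls and at 4.29, 6.07 and 14.6 CPM in AKT/YAP1 livers. All tumour-bearing libraries were higher, and it rose by 2.21 ± 0.33 (edgeR adjusted p = 2.67e-05). Hist1h3c, which encodes a replication-dependent H3, was at 0.681, 1.35 and 1.81 CPM against 3.42, 5.14 and 16.8 CPM. Its groups did not overlap either, replicates 3 and 5 being the highest of the AKT/YAP1 livers, and the change was 2.55 ± 0.41 (edgeR adjusted p = 6.03e-05). Hist1h3b rose by 2.68 ± 0.50 (edgeR adjusted p = 0.000263), from a median of 0.667 to one of 2.36 CPM. Hist1h2ak, an H2A gene that shares no window with another gene, was at 0.4997, 1.61 and 1.96 CPM in controls and 3.16, 5.34 and 15.7 CPM in AKT/YAP1 livers, a rise of 2.29 ± 0.42 (edgeR adjusted p = 0.00023). The largest value of all, 2.91 ± 0.59 for Hist1h2an (edgeR adjusted p = 0.000631), belongs to an H2A gene with 72.5% of its windows in common with another gene and at most 0.366 CPM in controls. Among H2B genes Hist1h2bl rose by 1.81 ± 0.41 (edgeR adjusted p = 0.0018), and every tumour-bearing library was above every control.

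H4 genes divided into those that rose and those that did not pass the test. Hist1h4j was at 2.18, 3.45 and 6.09 CPM in controls and 6.10, 8.99 and 12.9 CPM in AKT/YAP1 livers, without overlap, and rose by 1.39 ± 0.23 (edgeR adjusted p = 6.08e-05). Hist1h4f rose by 1.41 ± 0.28 (edgeR adjusted p = 0.000482) and Hist1h4k by 1.43 ± 0.29 (edgeR adjusted p = 0.000684). The abundant Hist1h4d, by contrast, was at 58.6, 74.3 and 106 CPM in controls and at 72.9, 81.4 and 94.2 CPM in AKT/YAP1 livers, with every tumour-bearing library inside the range of the controls. Its difference was 0.10 ± 0.16 (edgeR adjusted p = 0.66), and the log2 differences of Hist1h4a, Hist1h4c and Hist1h4h were 0.20 ± 0.22, -0.15 ± 0.21 and 0.33 ± 0.15. The H4 genes are known to encode the same protein.

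Across the genes a higher level went with a smaller change, as a description. Of the 14 replication-dependent members with a mean of at least 20 CPM over all 24 libraries, 4 rose in wild-type AKT/YAP1 livers (Hist1h1a, Hist1h1c, Hist1h1d and Hist1h3e), with a median log2 change of 0.36. Of the 40 below that level 29 rose, with a median of 1.49. Of all genes 28.4% were called in this comparison (16.9% higher and 11.5% lower), and the count among the 14 was near the share called. Hist1h2bc, the most abundant H2B gene, was at 96.9, 119 and 151 CPM in controls and 105.2, 138 and 172 CPM in AKT/YAP1 livers, a difference of 0.21 ± 0.15 (edgeR adjusted p = 0.318). Its GENCODE M21 3′ UTR model holds no hairpin motif. Hist1h1e, the replication-dependent H1 gene with the highest TPM in wild-type controls, differed by -0.20 ± 0.18 (edgeR adjusted p = 0.445) with overlapping groups.

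**Figure D2:**
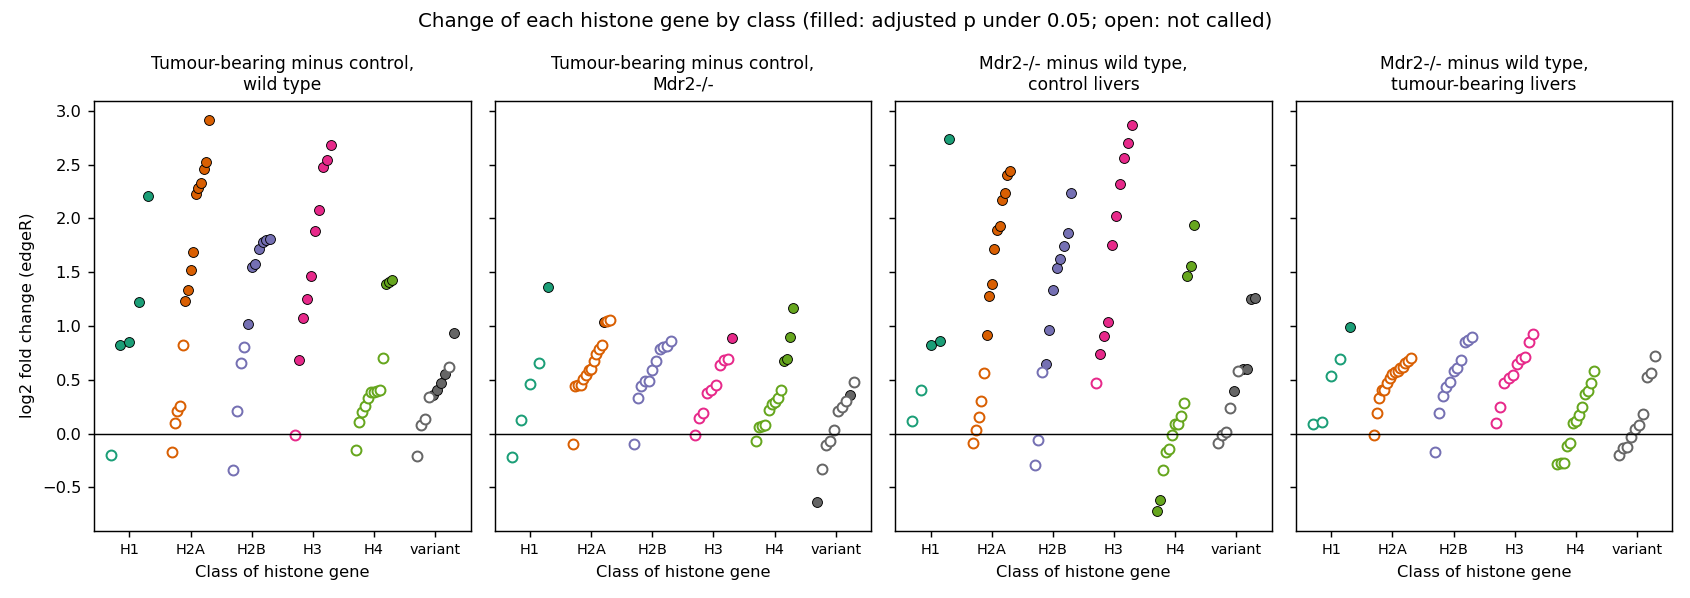
Each point is 1 histone gene, placed by class on the horizontal axis and by its edgeR log2 fold change on the vertical axis, filled where called. In wild type 33 replication-dependent genes were called as higher in AKT/YAP1 livers, in Mdr2-/- mice 7, between controls 33, and between AKT/YAP1 livers 1. Of all genes 16.9, 17.9, 26.2 and 7.13% were called as higher in these comparisons.

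Of the 38 calls in wild type, 28 were kept whichever library was left out. Without tumour-bearing replicate 3, which was the highest of its group for 40 of the 54 replication-dependent genes, the other 10 calls were lost, those of Hist1h1a, Hist1h1d, Hist1h2ad, Hist1h2ae, Hist1h2ao, Hist1h2bj, Hist1h2bp, Hist1h3e, H2afv and H2afy2. Some of them were also lost without tumour-bearing replicate 2 (H2afv) or 5 (Hist1h1a, Hist1h1d, Hist1h2ad, Hist1h2bp and Hist1h3e), or without wild-type control 1 (Hist1h1d and Hist1h3e), 2 (these and Hist1h2ad), 5 (these, H2afv and Hist1h2bp) or 6 (Hist1h2ad, Hist1h2bp and Hist1h3e), where "these" stands for Hist1h1d and Hist1h3e. The same replicate 3 had 1411 CPM of bile duct markers, the most in its group, where the range was 193 to 1411 CPM. How far tumour content accounts for its histone values was not tested.

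Between the controls, where the question is what Mdr2 loss alone does, Mdr2-/- livers had more of most replication-dependent histone messages than wild-type livers. Of the 66 members 38 were higher and 3 lower, at a background of 50.5% called (26.2% higher and 24.3% lower). In the replication-dependent set 33 of 54 were higher and 2 lower. The higher ones were 3 of 5 for H1, 10 of 15 for H2A, 8 of 11 for H2B, 9 of 10 for H3 and 3 of 13 for H4, and both lower ones were H4 genes. The median log2 change of the 54 was 0.94, beside 0.03 over all genes. For 12 of them every Mdr2-/- control was above every wild-type control, which held for 13.7% of all genes. This comparison uses the same wild-type controls as the tumour effect in wild type, so that a low value in those 6 libraries enters both.

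Hist1h1b was at 5.52, 11.6 and 15.96 CPM in Mdr2-/- controls, against 1.25, 1.61 and 2.63 CPM in the wild-type controls. No library overlapped, and the difference was 2.74 ± 0.34 (edgeR adjusted p = 6.7e-07). Hist1h3c was at 3.57, 7.91 and 12.3 CPM, again above all wild-type controls, a difference of 2.56 ± 0.41 (edgeR adjusted p = 2.38e-05), and Hist1h3h differed by 2.03 ± 0.30 (edgeR adjusted p = 8.96e-06). Hist1h2ak was at 3.87, 8.15 and 12.9 CPM and differed by 2.40 ± 0.42 (edgeR adjusted p = 5.77e-05). Of the H4 genes, Hist1h4k was higher by 1.93 ± 0.29 (edgeR adjusted p = 1.12e-05). Hist1h1c, a linker histone gene, was at 30.5, 40.4 and 58.1 CPM in the wild-type controls and 56.9, 75.1 and 93.0 CPM in Mdr2-/- controls, a difference of 0.83 ± 0.16 (edgeR adjusted p = 0.000233). A single Mdr2-/- library lay inside the range of the wild-type controls.

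Against that direction, Hist1h4c was at 18.4, 35.2 and 38.4 CPM in the wild-type controls and 10.8, 19.3 and 27.1 CPM in Mdr2-/- controls. It was lower by -0.72 ± 0.21 (edgeR adjusted p = 0.00648), though 1 wild-type library lay among the Mdr2-/- controls. Hist1h4i, at 17.2, 40.6 and 42.8 CPM against 13.2, 22.8 and 33.7 CPM, was lower by -0.62 ± 0.24 (edgeR adjusted p = 0.035). Scaled by total library size alone, both calls were lost (edgeR adjusted p = 0.09 for Hist1h4c and 0.265 for Hist1h4i). That of Hist1h4i was also lost without any of wild-type controls 1, 2, 3, 4 and 6 or Mdr2-/- controls 1, 5 and 6. With total library size the median of all genes in this comparison moved from 0.03 to 0.33, and both genes remained at negative values.

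**Figure D3:**
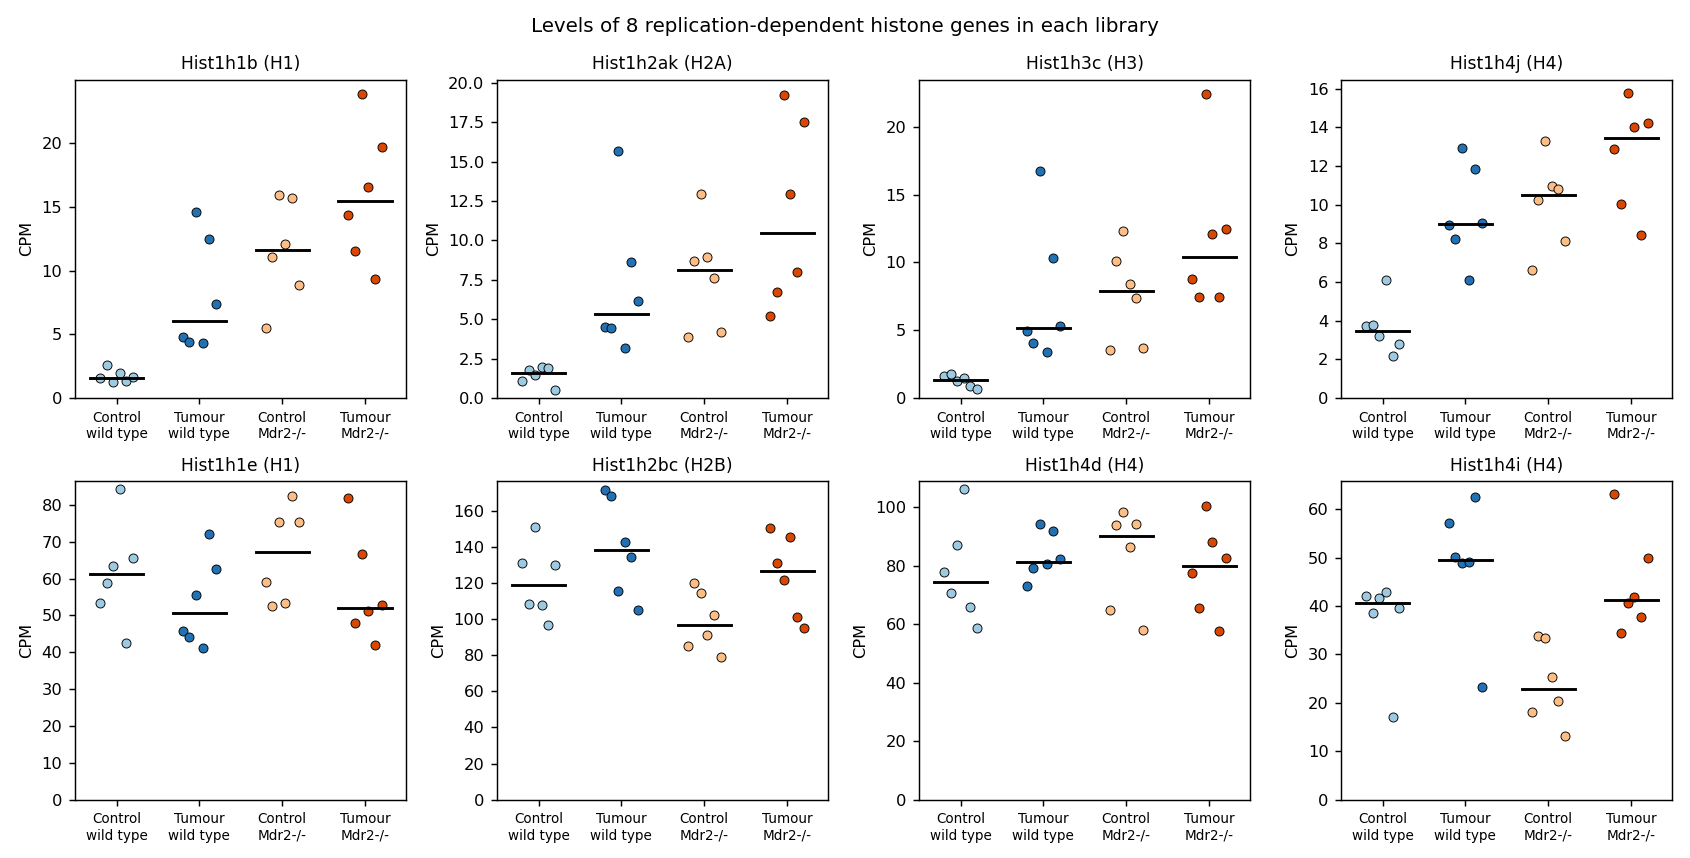
CPM of 8 replication-dependent genes in the 24 libraries by group, with the median as a line. Hist1h1b, Hist1h2ak, Hist1h3c and Hist1h4j in the upper row were lowest in wild-type controls, Hist1h1e, Hist1h2bc and Hist1h4d overlapped in all groups, and Hist1h4i had its lowest median, 22.8 CPM, in Mdr2-/- controls.

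Within Mdr2-/- mice, AKT/YAP1 livers had few histone genes that differed from controls by more than the spread. Of the 66 members 9 rose and 1 fell, at a background of 34.8% called (17.9% higher and 17% lower), so the members' count was below it. The 7 replication-dependent genes that rose were Hist1h1a, Hist1h2ai, Hist1h3f, Hist1h4i, Hist1h4m, Hist2h4 and Hist4h4, 4 of them H4 genes. The median log2 change of the 54 was 0.50, beside 0.04 over all genes, and 49 of the 54 values were above 0. This comparison shares the Mdr2-/- controls with the genotype comparison above.

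Hist1h1a, a linker histone gene, was at 5.25, 17.1 and 27.4 CPM in Mdr2-/- controls and 21.7, 43.3 and 54.4 CPM in AKT/YAP1 livers, with a narrow overlap. It rose by 1.36 ± 0.40 (edgeR adjusted p = 0.012). Hist1h4i was at 13.2, 22.8 and 33.7 CPM in controls and 34.4, 41.2 and 63.2 CPM in AKT/YAP1 livers. Each tumour-bearing library was above each control, as in 7.38% of all genes, and the rise was 0.89 ± 0.24 (edgeR adjusted p = 0.00769). Hist2h4 rose by 0.69 ± 0.24 (edgeR adjusted p = 0.0308), Hist4h4 by 0.68 ± 0.24 (edgeR adjusted p = 0.0337) and Hist1h3f by 0.89 ± 0.29 (edgeR adjusted p = 0.0199). By comparison Hist1h1b, at 9.38, 15.5 and 23.9 CPM in AKT/YAP1 livers, differed by 0.46 ± 0.30 (edgeR adjusted p = 0.224) and Hist1h3c, at 7.44, 10.4 and 22.4 CPM, by 0.64 ± 0.36 (edgeR adjusted p = 0.169).

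The count of 10 members depended on the libraries and the scaling. It was 3 without Mdr2-/- control 1 or control 6 (25.5 and 25.3% of all genes called), 6 without control 5 (30.1%), 5 without tumour-bearing replicate 3 (34.5%) and 4 without tumour-bearing replicate 6 (23.8%). Without tumour-bearing replicate 1, one of the libraries said to stand apart, it was 8 (28.5%), but only 6 of the 10 calls were kept, those of Hist2h4, Hist4h4, H2afv and H3f3a-ps1 being lost. Control 1 was the lowest of its group for 35 of the 54 replication-dependent genes. Those called without control 1, and again without control 6, were Hist1h1a, Hist1h4i and the variant H2afy. With total library size the count was 25, all of them rises, a share near the 37.7% of all genes called with that scaling, and the median of all genes moved from 0.04 to 0.28.

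Beside these changes, other RNAs without a poly(A) tail moved in the same libraries. Of all genes 34.8% were called for the tumour effect in Mdr2-/- mice (17.9% higher and 17% lower). Between controls 50.5% were (26.2% higher and 24.3% lower). Of 9 other RNAs without a poly(A) tail that were tested, 4 rose and none fell in Mdr2-/- AKT/YAP1 livers. In Mdr2-/- controls against wild-type controls 5 fell and none rose. The summed level of that list was 19395, 35468 and 40555 CPM in the wild-type controls and 9202, 18894 and 27699 CPM in Mdr2-/- controls. It was 11674, 25594 and 41642 CPM in the wild-type AKT/YAP1 livers and 18707, 24785 and 45905 CPM in Mdr2-/- AKT/YAP1 livers. Hist1h4i and Hist1h4c, lower in Mdr2-/- controls, went the way of that list between controls, and Hist1h1b and the H3 genes went the other way. When the level of 7 nuclear non-coding RNAs, of which Rn7sk, Rpph1 and Rmrp also belong to that list, entered the model as a covariate, 1 member was called for the tumour effect in Mdr2-/- mice, Hist1h4m, and the calls over all genes went from 34.8 to 5.58%. The summed median of those 7 RNAs was 56643 CPM in the wild-type controls and 31074 CPM in Mdr2-/- controls, and 54705 and 50892 CPM in the AKT/YAP1 livers of wild-type and Mdr2-/- mice. With that covariate 33 of the 38 calls in wild type and 40 of the 41 between controls were kept, where 40.1 and 47.1% of all genes were called.

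The tumour effect differed between the genotypes for 15 members, 13 with a smaller value in Mdr2-/- mice and 2 with a larger one. That share was near the 25.3% called among all genes (11.9% larger and 13.4% smaller), and within the replication-dependent set it was 12 of 54, all smaller in Mdr2-/- mice. The difference was -1.75 ± 0.44 for Hist1h1b (edgeR adjusted p = 0.00712), -1.91 ± 0.54 for Hist1h3c (edgeR adjusted p = 0.0138) and -1.51 ± 0.41 for Hist1h3h (edgeR adjusted p = 0.0103). For Hist1h4j it was -1.06 ± 0.31 (edgeR adjusted p = 0.0153) and for Hist1h4k -1.35 ± 0.40 (edgeR adjusted p = 0.0164). These 5 genes were the ones called under every alternative run. The count was 7 without wild-type tumour-bearing replicate 3 (22.2% of all genes called), 9 without wild-type control 6 (19.8%), 9 without Mdr2-/- tumour-bearing replicate 6 (20.7%), and 8 without the pair of libraries said to stand apart (16.8%). Hist1h4i, whose tumour effect was called in Mdr2-/- mice and not in wild type, had a difference of 0.50 ± 0.34 (edgeR adjusted p = 0.273), so its effects were not shown to differ.

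Genes that act in the same phase of the cell cycle gave a comparison for the histone messages. Of all genes 16.9% were called higher in wild-type AKT/YAP1 livers and 26.2% between controls. In Mdr2-/- AKT/YAP1 livers 17.9% were higher and 17% lower. In wild-type AKT/YAP1 livers 25 of 30 S phase genes rose, among them Mcm6, a subunit of the replicative helicase, by 2.47 ± 0.29 (edgeR adjusted p = 7.63e-07). Of 20 mitosis genes 18 rose, such as Aurkb, a mitotic kinase, by 2.12 ± 0.39 (edgeR adjusted p = 0.000247). In Mdr2-/- AKT/YAP1 livers 14 of the 30 S phase genes fell and none rose, while no replication-dependent histone gene fell and 7 of 54 rose, and 2 of 20 mitosis genes rose and none fell. Mcm6 fell there by -1.15 ± 0.26 (edgeR adjusted p = 0.00244), and Ccna2, a cyclin of S phase and mitosis, rose by 0.86 ± 0.33 (edgeR adjusted p = 0.0449). With total library size 7 of the 30 S phase genes fell and 3 rose in this comparison (37.7% of all genes called). By limma on the authors' TPM with a pseudocount of 1, 8 fell and 3 rose (29.9%). With the nuclear non-coding RNA covariate, which cannot be told apart from this tumour effect, 3 S phase genes fell and none rose (5.58%), at a median log2 change of -0.63. Between controls 23 of 30 S phase genes and 19 of 20 mitosis genes were higher in Mdr2-/- livers, none of either being lower. Whether the messages of histones and of S phase genes came from the same cells was not tested.

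**Figure D4:**
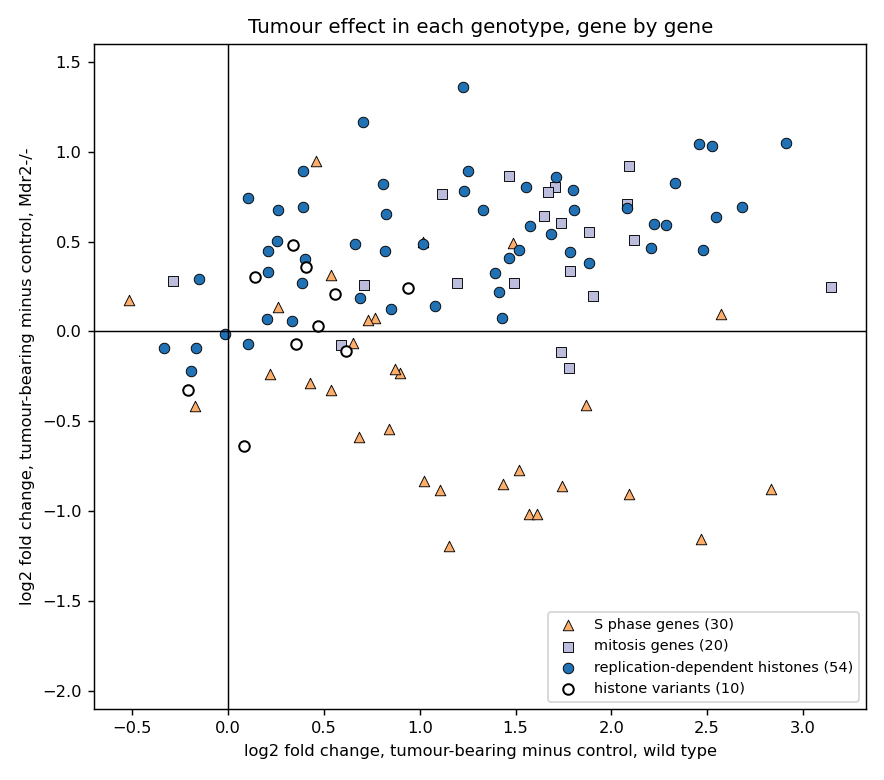
Each point is a gene, with the log2 change between tumour-bearing and control livers in wild type on the horizontal axis and in Mdr2-/- mice on the vertical axis. In wild type both the 54 replication-dependent histone genes (median 1.23) and the 30 S phase genes (median 0.96) lie mostly right of 0, while in Mdr2-/- mice their medians are 0.50 and -0.37.

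Factors that make, process or place histones were read from the same fit. Of all genes 28.4% were called in wild type (16.9% higher and 11.5% lower) and 34.8% in Mdr2-/- mice (17.9% higher and 17% lower). The calls among the processing factors were below that share in wild type and near it in Mdr2-/- mice. Of 14 tested factors of histone message processing, none rose and 2 fell in wild-type AKT/YAP1 livers, Cpsf2, a subunit of the cleavage complex, being lower by -0.39 ± 0.11 (edgeR adjusted p = 0.00724). In Mdr2-/- AKT/YAP1 livers 4 fell and 1 rose. Lsm11, part of the U7 particle that guides cleavage behind the hairpin, fell by -0.60 ± 0.18 (edgeR adjusted p = 0.013), and Casp8ap2, a coactivator of histone gene transcription, rose by 0.53 ± 0.16 (edgeR adjusted p = 0.0179). Upf1, a helicase that takes part in the decay of histone messages, fell by -0.95 ± 0.24 (edgeR adjusted p = 0.00487). Of 24 histone chaperone genes 8 rose and 4 fell in wild type, and 2 rose and 10 fell in Mdr2-/- mice. Chaf1a, the large subunit of the complex that deposits H3 and H4 behind the replication fork, rose by 2.00 ± 0.36 in wild type (edgeR adjusted p = 0.000171) and fell by -1.30 ± 0.32 in Mdr2-/- mice (edgeR adjusted p = 0.00431). The difference of these effects was -3.30 ± 0.48 (edgeR adjusted p = 5.3e-05). Asf1a, a chaperone of H3 and H4, rose by 0.84 ± 0.19 in Mdr2-/- AKT/YAP1 livers (edgeR adjusted p = 0.00259). Cenpa, the centromeric H3 variant, rose by 0.56 ± 0.20 in wild type (edgeR adjusted p = 0.0321).

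Markers of some other cell types moved in the same comparisons as the histone genes. Among all genes 28.4% were called for the tumour effect in wild type, 34.8% for that in Mdr2-/- mice and 50.5% between controls. All 10 macrophage and monocyte markers were higher in Mdr2-/- than in wild-type controls, with a summed level of 481 to 913 CPM against 181 to 246 CPM, and 7 of 10 rose in wild-type AKT/YAP1 livers, to 248 to 510 CPM. Bile duct markers rose from 77.9 to 140 CPM in the wild-type controls to 193 to 1411 CPM in the wild-type AKT/YAP1 livers, 7 of 10 being called, and to 1137 to 4066 CPM in Mdr2-/- AKT/YAP1 livers from 142 to 373 CPM in their controls. Between controls 9 of 10 bile duct markers were higher in Mdr2-/- mice, and in Mdr2-/- AKT/YAP1 livers 6 of 10 rose. Of 10 fibroblast and stellate cell markers 6 rose in wild-type and 4 in Mdr2-/- AKT/YAP1 livers, and between controls 6 were higher and 1 lower in Mdr2-/- mice. Of 10 hepatocyte markers 5 fell in wild-type and 7 in Mdr2-/- AKT/YAP1 livers, and 3 were lower in Mdr2-/- than in wild-type controls. Of the macrophage and monocyte markers none rose and 2 fell in Mdr2-/- AKT/YAP1 livers. In wild-type AKT/YAP1 livers no T and NK cell or erythroid marker of 10 each was called. There 1 of 9 B and plasma cell markers and 1 of 10 endothelial markers rose, and none fell. Between controls 4 T and NK cell markers were higher in Mdr2-/- mice and 2 erythroid markers lower. For B and plasma cells 1 was higher and 1 lower, and for endothelial cells 2 and 2. No marker of these lists was at 0 in all libraries. The part of each cell type in the histone levels was not tested.

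Between the tumour-bearing groups, where both genotypes carry AKT and YAP1, 1 of 66 members was called, at a background of 11.1% (7.13% higher and 4% lower). Hist1h1b was higher in Mdr2-/- mice, at 9.38, 15.5 and 23.9 CPM against 4.29, 6.07 and 14.6 CPM, by 0.99 ± 0.30 (edgeR adjusted p = 0.0335), and its groups overlapped. All AKT/YAP1 libraries of Mdr2-/- mice lay above all those of wild type for 2.3% of all genes and for 0 of the 66 members. The median log2 difference of the 54 replication-dependent genes was 0.47, beside -0.02 over all genes, and 47 of 54 values were above 0. This count rested on single libraries: without wild-type replicate 3 it was 17, all higher in Mdr2-/- mice, at a background of 15.8% called. It was 2 without Mdr2-/- replicate 1. The call of Hist1h1b was lost without any of wild-type replicates 1, 2, 4 and 6 or of Mdr2-/- replicates 3, 4 and 6. It was also lost with only the 12 libraries compared, with no filter, without the pair of libraries said to stand apart, and with the title number or the nuclear non-coding RNA as a covariate. With the latter 1 other replication-dependent gene was called, as lower in Mdr2-/- mice. On the authors' TPM with a pseudocount of 1, limma called 17 members, all higher, where it called 19.2% of all genes and their median moved from -0.02 to 0.18.

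The replacement variants had a median log2 change of 0.38 in wild-type AKT/YAP1 livers and 0.49 between controls, beside 1.23 and 0.94 for the replication-dependent genes. Their summed level was 431, 526 and 571 CPM in the wild-type controls, 555, 604 and 650 CPM in the wild-type AKT/YAP1 livers, 542, 647 and 685 CPM in Mdr2-/- controls and 496, 622 and 712 CPM in Mdr2-/- AKT/YAP1 livers. Of the 10, 5 rose in wild-type AKT/YAP1 livers, 5 were higher in Mdr2-/- than in wild-type controls, and in Mdr2-/- AKT/YAP1 livers 1 rose and 1 fell. Of all genes 28.4, 50.5 and 34.8% were called in these comparisons (16.9, 26.2 and 17.9% as higher). The variants' count was thus near the share called between controls and below it in Mdr2-/- AKT/YAP1 livers. H3f3b, one of the pair of H3.3 genes, was at 118, 125 and 142 CPM in the wild-type controls, 122, 164 and 186 CPM in the wild-type AKT/YAP1 livers and 177, 191 and 210 CPM in Mdr2-/- controls. Its genotype difference in controls, where no library overlapped, was 0.60 ± 0.11 (edgeR adjusted p = 8.23e-05), and its tumour effect in wild type 0.36 ± 0.11 (edgeR adjusted p = 0.0154). The other H3.3 gene, H3f3a, encodes the same protein and differed by -0.09 ± 0.17 between controls (edgeR adjusted p = 0.69), and its change was 0.14 ± 0.17 in wild-type AKT/YAP1 livers (edgeR adjusted p = 0.582). Its groups overlapped throughout.

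H2afz, the H2A.Z gene with the higher level, was at 41.2, 48.5 and 63.0 CPM in the wild-type controls and 55.6, 78.2 and 92.9 CPM in the wild-type AKT/YAP1 livers. A single tumour-bearing library lay within the range of the controls, and H2afz rose by 0.56 ± 0.16 (edgeR adjusted p = 0.0119). It had 56.5% of its 150-base windows in common with another gene, so its values are uncertain in the way given above. H2afx, whose product is phosphorylated at DNA breaks and whose message carries the hairpin, was at 2.14, 5.72 and 9.51 CPM in the wild-type and 8.57, 11.6 and 25.2 CPM in Mdr2-/- controls. It was higher by 1.25 ± 0.34 (edgeR adjusted p = 0.00345) and differed by 0.62 ± 0.33 in wild-type AKT/YAP1 livers (edgeR adjusted p = 0.173). H2afy, a macroH2A gene, was at 51.4, 63.2 and 71.4 CPM in Mdr2-/- controls and 25.6, 41.6 and 47.7 CPM in Mdr2-/- AKT/YAP1 livers. Every tumour-bearing library was below every control, as for 7.62% of all genes, and it fell by -0.64 ± 0.20 (edgeR adjusted p = 0.0165). That call was lost with total library size (edgeR adjusted p = 0.143), on the authors' TPM with a pseudocount of 1 (limma adjusted p = 0.111) and with the nuclear non-coding RNA covariate, where the value was 0.06. The limit given above for that covariate holds here too. H2afy2, the second macroH2A gene, was higher in Mdr2-/- controls by 1.26 ± 0.27 (edgeR adjusted p = 0.000587), without overlap, from a median of 0.557 to one of 1.51 CPM. H1f0 was at 85.8, 129 and 156 CPM in the wild-type controls, 94.2, 108 and 118 CPM in the wild-type AKT/YAP1 livers, 98.7, 121 and 165 CPM in Mdr2-/- controls and 75.1, 103 and 108 CPM in Mdr2-/- AKT/YAP1 livers. None of its comparisons was called.

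The make-up of histone messages differed between groups, read per length within each library. Of the TPM of H1 genes, H1f0 held 24.2 ± 7.67% (SD, n = 6) in wild-type controls, 16.5 ± 4.77% in wild-type AKT/YAP1 livers, 17.3 ± 2.53% in Mdr2-/- controls and 11.5 ± 2.62% in Mdr2-/- AKT/YAP1 livers. Hist1h1e held 35.3 ± 2.69, 23.9 ± 4.08, 28.1 ± 3.16 and 19.6 ± 1.55% in the same order. Hist1h1b held 1.03 ± 0.335% in wild-type controls, the lowest of the groups, and 3.33 ± 1.08, 4.82 ± 1.14 and 5.51 ± 1.34% in the others. Hist1h1a held 8.07 ± 2.51 and 7.88 ± 4.70% in wild-type and Mdr2-/- controls and 13.6 ± 4.9995 and 16.3 ± 3.28% in the AKT/YAP1 livers of each genotype. A share within a library shows unequal change between genes and not which of them changed.

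**Figure D5:**
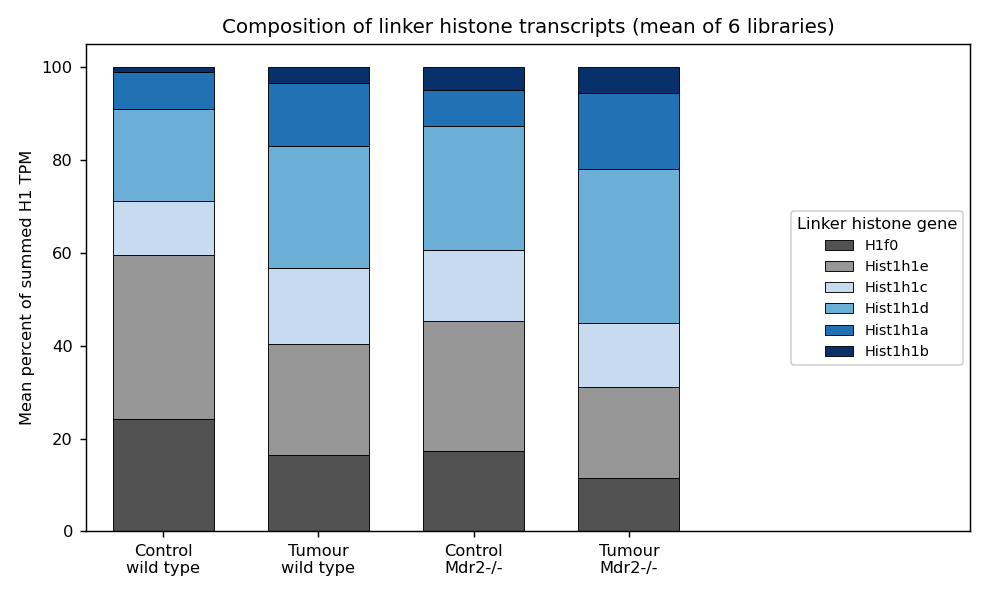
Mean percent of summed H1 TPM held by each of 6 linker histone genes in each group of 6 libraries, stacked to 100. H1f0 and Hist1h1e together are largest in wild-type controls (24.2 and 35.3%) and smallest in Mdr2-/- AKT/YAP1 livers (11.5 and 19.6%).

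H3.3 held 49.1, 57.9 and 69.3% of the TPM of H3 genes in wild-type controls and 27.3, 43.3 and 48.7% in wild-type AKT/YAP1 livers, without overlap. It held 30.1, 38.1 and 51.8% in Mdr2-/- controls and 23.3, 33.7 and 40.3% in Mdr2-/- AKT/YAP1 livers, where the groups overlapped. H2A.Z held 43.0, 50.8 and 60.1% of the TPM of H2A genes in wild-type controls and 28.4, 37.9 and 42.9% in Mdr2-/- controls, which did not overlap. It held 28.9, 42.5 and 51.0% in wild-type and 26.1, 34.2 and 43.6% in Mdr2-/- AKT/YAP1 livers, and each of these groups overlapped its controls. The limit from shared sequence that was given for H2afz holds for these H2A.Z shares too.

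Promoter sequences of RefSeq (GRCm38.p6, the 250 bases before the start) were found for 57 of the 66 members. CCAAT on either strand stood in all 5 matched H1 promoters, all 14 of H2A, all 9 of H2B and 7 of 8 of H3, but in 3 of 12 of H4, against 37.5% of 27025 genes. The octamer ATTTGCAT stood in 6 of 14 H2A and 4 of 9 H2B promoters and in 1.81% of all genes, and AAACACA, the H1 box, in 4 of 5 H1 promoters and in 7.20% of all genes. Motifs were searched on both strands without removing overlaps between them, and a match is not shown to be a site in use. The last 120 bases before the start are shown for 3 members that rose and, last, for the abundant Hist1h4d, which did not pass the test, with the CCAAT box on either strand, the TATA box and the H1 box in capitals.
Hist1h1b (chr13:21780626-21780745, minus strand): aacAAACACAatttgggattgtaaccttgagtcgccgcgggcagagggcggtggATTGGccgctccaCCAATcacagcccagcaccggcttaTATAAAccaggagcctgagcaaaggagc
Hist1h3c (chr13:23745522-23745641, minus strand): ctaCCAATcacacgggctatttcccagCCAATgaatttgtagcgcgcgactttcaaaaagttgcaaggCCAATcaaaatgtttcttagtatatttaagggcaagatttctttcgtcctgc
Hist1h4j (chr13:21734914-21735033, plus strand): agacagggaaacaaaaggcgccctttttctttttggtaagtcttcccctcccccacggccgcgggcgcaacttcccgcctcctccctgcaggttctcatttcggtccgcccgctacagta
Hist1h4d (chr13:23581448-23581567, plus strand): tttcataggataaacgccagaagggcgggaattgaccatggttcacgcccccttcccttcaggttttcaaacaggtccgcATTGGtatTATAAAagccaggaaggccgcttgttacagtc
Hist1h3c, which rose, holds CCAAT 3 times in this window, Hist1h4j, which also rose, has none of the motifs, and Hist1h4d, which did not pass the test, has both CCAAT and TATAAA.

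The remaining members were a pseudogene and an antisense gene named after H3f3a. H3f3a-ps1 was at 0.305, 0.532 and 0.909 CPM in the wild-type controls and 0.0375, 0.205 and 0.301 CPM in Mdr2-/- controls, lower by -1.59 ± 0.39 (edgeR adjusted p = 0.00157) and without overlap. H3f3aos, at a median of 0.489 CPM in the wild-type controls, was called in none of the comparisons of groups but had a tumour effect larger in Mdr2-/- mice by 1.76 ± 0.58 (edgeR adjusted p = 0.0287). Reads of H3f3aos and of H3f3a cannot be told apart by strand here, since strand was not stated. H3f3a-ps1 lies on chromosome X, and how reads that match both it and H3f3a were counted is not given. The members near the minimum were counted in few libraries, Hist1h2ao and Hist1h2bp reaching 10 counts in 12 of 24, while 48 of the 66 members reached it in all 24. In those 48, which did not depend on 1 group to be included, 27 rose and none fell in wild-type AKT/YAP1 livers, 27 were higher and 2 lower between controls, and 7 rose and 1 fell in Mdr2-/- AKT/YAP1 livers. Of all genes 28.4, 50.5 and 34.8% were called in these comparisons (16.9, 26.2 and 17.9% as higher), so the last count was below the share called.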

How the data were processed

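Total RNA of mouse liver was depleted of ribosomal RNA and sequenced as pairs of 150 bases, per the labels' protocols. The authors deposited a table of raw counts per gene and a table of TPM values for the same 24 libraries. The submitters' processing notes name mm39 and DESeq2. For the aligner, the counter, the annotation and the use of strand, the sources used here give nothing. Groups came from the sample labels. The members and gene lists were chosen with earlier results of these data known. Any member could be named, with values for the most abundant of each class, the largest called changes reaching 5 CPM and the main variants.

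Counts were filtered with filterByExpr (minimum 10), scaled with TMM and fitted in one model of 4 groups with edgeR 4.0.16 (R 4.3.3, robust quasi-likelihood), with adjustment over all 17216 genes. The script was tested on simulated data. Rows without a symbol (174, at most 0.0178% of counts) could not be members but stayed in the counts that were filtered, scaled and fitted. Levels by length used the deposited TPM. Alternatives in the edgeR fit were size factors by the method of DESeq2, upper-quartile factors, total library size, no filter and a minimum of 50. The test of DESeq2 1.42.0 and limma 3.58.1 on log2(TPM + 1) and log2(TPM + 0.1) were run too. Further runs were a fit of the libraries compared, covariates for the title number (under 2000 or not) and the share of nuclear non-coding RNA, and leaving out libraries. Hairpins came from GENCODE M21 transcripts and promoters from RefSeq. Python 3.11.15, pandas 2.3.3, numpy 2.4.6 and matplotlib 3.10.9 were used.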

Additional observations from a re-analysis of the deposited data

Results flagged for a closer look

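Over 27 members and the summed share of the replication-dependent genes, 112 sets of 6 libraries were examined, and in 10 of them, all of single genes, 1 library lay far from the other 5, where chance gives about 1 in 20. Wild-type tumour-bearing replicate 6 was low for H2afv (33.7 CPM), H3f3a (99.3 CPM), Hist1h4c (17.2 CPM), Hist1h4h (54.2 CPM) and Hist1h4i (23.3 CPM) and high for H2afy (68.4 CPM). Replicate 3 of the same group was high for H1fx (1.49 CPM), and Mdr2-/- tumour-bearing replicate 3 was high for Hist1h3c (22.4 CPM). Wild-type control 5 was low for Hist1h4i (17.2 CPM), and wild-type control 4 was high for H3f3b (142 CPM).

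The tumour effect differed between the genotypes in the test of the difference itself for 15 members, given here as the log2 change in Mdr2-/- mice minus that in wild type. Among H3 genes it was -2.03 for Hist1h3g, -1.99 for Hist1h3b, -1.91 for Hist1h3c, -1.51 for Hist1h3h and -1.39 for Hist1h3d. Among H1 and H2A genes it was -1.75 for Hist1h1b, -0.72 for Hist1h1c, -1.70 for Hist1h2ak and -1.49 for Hist1h2ai. Among H4 genes it was -1.35 for Hist1h4k, -1.19 for Hist1h4f and -1.06 for Hist1h4j. The variant H3f3b had -0.42, H3f3a-ps1 1.44 and H3f3aos 1.76.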

How the results depend on the processing

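The counts of histone members called for the tumour effect in wild type (38) and for genotype in controls (41) stayed within 1.5 times under every alternative run, with ranges of 28 to 41 and 35 to 40 when single libraries were left out. Wild-type AKT/YAP1 livers all had title numbers above 2000, and wild-type controls other than replicate 6 had lower ones. The title number covariate therefore nearly coincides with the tumour effect in wild type. With it 34 of the 38 calls were kept, where 20.2% of all genes were called. For the tumour effect in Mdr2-/- mice (10) the count was 17 with upper-quartile factors (35% of all genes called), 25 with total library size (37.7%), 3 with no filter (16.1%), 19 and 16 with limma on log2(TPM + 1) and log2(TPM + 0.1) (29.9 and 28.3%), and 1 with the nuclear non-coding RNA covariate (5.58%), and ran from 3 to 15 without single libraries. For the difference of the tumour effects (15) it was 9 with no filter (10.6% of all genes), 8 without the pair of libraries said to stand apart (16.8%), and 7 to 20 without single libraries. For genotype in AKT/YAP1 livers (1) it was 7 with total library size (17%), 17 and 14 with limma on the same TPM scales (19.2 and 17.8%), 0 with no filter (4.28%), 0 with only the 12 libraries compared (8.27%), 0 without that pair (15.5%), and 0 to 17 without single libraries. The cause was not tested. Between controls, limma on log2(TPM + 1) and log2(TPM + 0.1) reversed H1f0 (0.45 and 0.46), H3f3a (0.34 and 0.35) and Hist1h4h (0.45 and 0.45), none of them called in the counts. In Mdr2-/- mice the nuclear non-coding RNA covariate, which cannot be told apart there from the tumour effect, reversed H2afv (-0.037), H2afy (0.060), Hist2h4 (-0.14) and Hist4h4 (-0.27). No paired analysis was possible because the replicate numbers follow the order of the samples and pair nothing. Genes under about 1 CPM rest on few counts, and reads that match several histone genes limit single values.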
